A study of Prunus persica with 21 samples.

Results

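PpPep1 is a peach endogenous elicitor peptide, and the measurements described here set leaves cut 48 h after a PpPep1 spray against leaves that received no peptide (t0). The comparison uses 6 of the 21 RNA-Seq libraries of the series, 3 of PpPep1 48 h and 3 of t0. All plants were juvenile *Prunus persica* var. Big Top raised in vitro and acclimatized in a glasshouse. PpPep1 was sprayed at 100 nM on both faces of the youngest fully expanded leaves, and the leaf blades were frozen after the central vein had been cut out. The t0 plants carry the treatment label mock, while the design text calls the control plants untreated. No mock-sprayed leaves sampled at 48 h are among the libraries, so peptide, spraying, sampling time and growth over that time move together in the comparison.

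The libraries were given to their groups by a matched reading of the count table. Its 3 columns headed PpPep2 24 h hold the PpPep1 48 h libraries by the study's own library statistics, namely how many read pairs were assigned to a single gene and how many genes together took up 25% of the reads. The totals of these columns were 0.971 to 0.975 of the read pairs listed for PpPep1 48 h, and 26, 32 and 34 genes held 25% of the reads in both sources. The totals of the columns headed PpPep1 48 h were 1.03 to 1.29 times those read pairs. The t0 columns matched as headed, with totals of 0.967 to 0.970 of their read pairs, although t0 replicate 3 also matched 1 other library. The t0 libraries were made in a different library series from those of 48 h, so library series and treatment cannot be told apart. PpPep2 48 h libraries, from leaves sprayed with 1000 nM of the second peach peptide, are of the same library series as PpPep1 48 h and serve as a second comparison.

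Peps are short peptides released from the C-terminus of PROPEP precursor proteins and act as damage signals in plants. In *Arabidopsis* they are bound by the leucine-rich repeat receptor kinases PEPR1 and PEPR2, which work with a co-receptor kinase and set off calcium influx, MAP kinase activation and the induction of WRKY and ethylene-response transcription factors, as the flagellin receptor FLS2 does. This early response is known to be transient, and the 48 h sample addresses the late state of the leaf.

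The PpPep1 48 h libraries held 36972911, 34873044 and 35951889 counts, and the t0 libraries 44415576, 49253467 and 39985204. Between 20339 and 20751 genes had at least 1 count in each of the 6 libraries. Averaged over genes, the squared difference between replicates was 14.4 to 30.0 times the counting variance among PpPep1 48 h libraries and 29.7 to 69.9 times among t0 libraries. This ratio also depends on depth, which was higher in t0, and the part of depth in the difference was not tested. Among the PpPep1 1 h libraries, with 40242431 to 43773982 counts, the ratio was 12.4 to 16.6. On the log scale, replicates correlated at 0.989 to 0.991 in PpPep1 48 h and at 0.988 to 0.991 in t0. Few tissue markers carry a name in the table. CESA4 (PRUPE_8G216900), a cellulose synthase of secondary walls of the xylem, averaged 6.86 ± 0.89 counts scaled to library size per 1e6 counts (CPM) in PpPep1 48 h and 7.27 ± 0.04 CPM in t0 (SD, n = 3 each; adjusted p = 0.682). The gene AtPP2-A13 (PRUPE_2G156400) shares its PP2 name with phloem proteins but is not read here as a marker of phloem. It averaged 108 ± 4.09 CPM in PpPep1 48 h and 179 ± 9.07 CPM in t0. Its log2FC of -0.73 ± 0.11 (SE; adjusted p = 4.12e-05) stayed under the threshold on log2FC, and its part in the results below was not tested. In bulk leaf tissue, fewer cells of a type and less RNA per cell cannot be told apart. The histone gene HTA12 (PRUPE_6G250200) averaged 16.0 ± 1.43 CPM in PpPep1 48 h and 17.3 ± 1.46 CPM in t0 (adjusted p = 0.316).

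At 48 h after PpPep1, 404 genes were upregulated and 437 downregulated relative to t0 among 18586 genes tested, where a differentially expressed gene (DEG) had to reach an adjusted p under 0.01 together with an absolute log2FC over 1. These 841 DEGs made up 4.52% of the genes tested, 2.17% up and 2.35% down. Most changes were of moderate size. Of the upregulated DEGs, 276 had a log2FC of at most 1.5 and 12 had one above 3, with a median of 1.31. Of the downregulated DEGs, 274 lay above -1.5 and 24 below -3, with a median of -1.35. The median log2FC over all genes tested was 0.03.

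DEGs were mainly genes of low to intermediate level. In the group where the gene was higher, the mean was under 1 CPM for 56 upregulated and 65 downregulated DEGs, and over 100 CPM for 44 and 31. The upregulated DEGs held 3.16% of all counts in PpPep1 48 h and 1.38% in t0, and the downregulated DEGs held 1.78% in PpPep1 48 h and 4.18% in t0. The libraries of both groups did not overlap for 403 of the 404 upregulated and 436 of the 437 downregulated DEGs. Over all genes tested, 48.6% had groups that did not overlap, 27.1% with PpPep1 48 h higher and 21.5% with it lower. Without the threshold on log2FC, 4859 genes passed. When each of the 6 libraries was left out in turn, 733 to 826 DEGs were found, and 483 of the 841 were DEGs in every such fit. Read as headed, the columns named PpPep1 48 h gave 1148 upregulated and 89 downregulated DEGs against t0, so the split by direction rests on the matched reading.

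**Figure D1:**
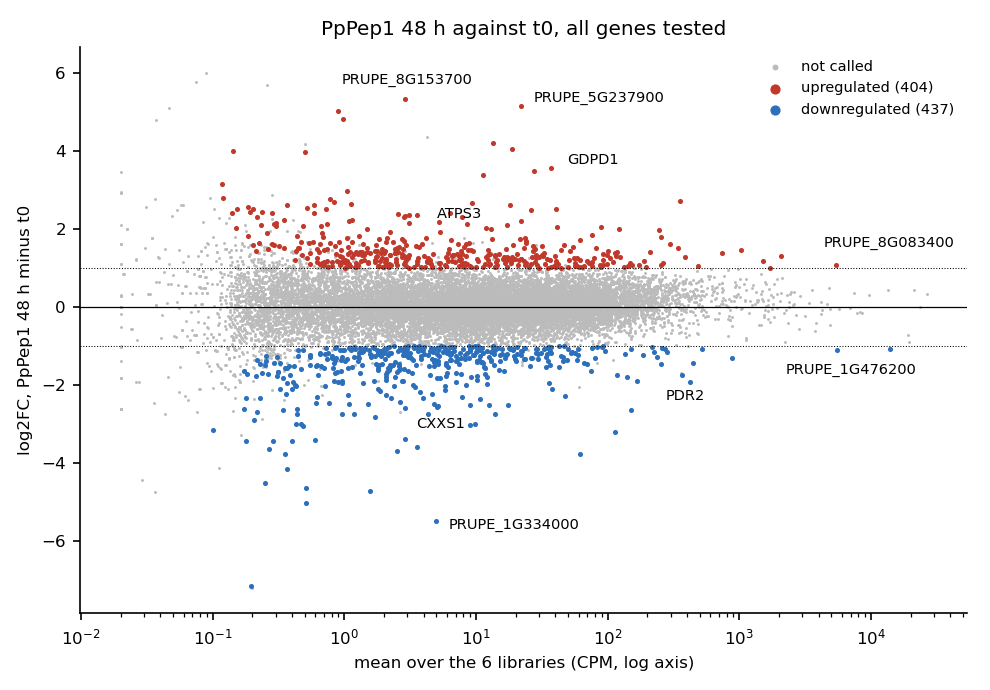
Each point is 1 of the 18586 genes tested, with its mean over the 6 libraries in CPM on a log axis (means under 0.02 CPM are drawn at 0.02) and its log2FC, PpPep1 48 h minus t0, on the vertical axis. Red points are the 404 upregulated and blue points the 437 downregulated DEGs, and dotted lines mark a log2FC of 1 and -1.

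Only 38 of the 841 DEGs carry a gene name in the table or in the study's gene lists, which were selected on these same samples. They were 21 upregulated and 17 downregulated genes out of 571 named genes tested, beside 4.52% DEGs among all genes tested. The 12 highest and 12 lowest of them with a mean of at least 1 CPM in the higher group and with groups that do not overlap are described first, apart from peroxidase 44, which is given with the RT-qPCR genes. These genes were picked by their log2FC in this comparison, so their non-overlap and their size come from the choice.

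The upregulated named gene with the highest log2FC was PRUPE_3G310500, annotated as the chloroplastic glycerophosphodiester phosphodiesterase GDPD1, an enzyme that releases glycerol-3-phosphate from phospholipid breakdown products. It had 99.1, 44.3 and 61.2 CPM in PpPep1 48 h leaves, against 4.33, 5.27 and 7.98 CPM in t0 leaves. The PpPep1 48 h libraries were widely spread, yet the lowest of them stood well above the highest t0 library, and the log2FC was 3.55 ± 0.61 (SE; adjusted p = 3.65e-04). ATPS3 (PRUPE_2G277200), whose *Arabidopsis* namesake is a phosphate-starvation-induced gene of the glycerol-3-phosphate transporter family, had 36.6, 20.5 and 26.95 CPM in PpPep1 48 h and 5.45, 6.48 and 7.65 CPM in t0 (log2FC 2.11 ± 0.39, adjusted p = 6.08e-04). In both genes PpPep1 48 h replicate 1 was the highest library and replicate 2 the lowest of its group. ATPAP15 (PRUPE_8G201400), a purple acid phosphatase, had 35.5, 26.9 and 29.6 CPM in PpPep1 48 h and 12.9, 12.5 and 14.1 CPM in t0. Its replicates lay close together in each group, and its log2FC of 1.22 ± 0.12 had an adjusted p of 5.80e-07.

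SARD1 (PRUPE_5G223600) had 9.18, 7.92 and 16.3 CPM in PpPep1 48 h and 4.22, 3.27 and 5.07 CPM in t0. In *Arabidopsis*, SARD1 is a transcription factor that drives the synthesis of salicylic acid, and the study describes the peach gene by the full name, SAR DEFICIENT 1. Its log2FC was 1.42 ± 0.29 (adjusted p = 0.00117), with PpPep1 48 h replicate 3 well above the other two, and the gene was not a DEG when only the 2 groups compared entered the fit (log2FC 1.38). RPP13L4 (PRUPE_7G160100), a disease resistance protein whose *Arabidopsis* namesake is the immune receptor ZAR1, had 1.89, 2.42 and 4.02 CPM in PpPep1 48 h and 1.25, 1.14 and 1.39 CPM in t0. The same replicate 3 was again the highest, and without it the log2FC of 1.14 ± 0.23 became 0.78, under the threshold. AATP1 (PRUPE_3G274100), an AAA-type ATPase, had 3.36, 3.54 and 4.85 CPM in PpPep1 48 h and 1.41, 1.23 and 1.96 CPM in t0 (log2FC 1.36 ± 0.23, adjusted p = 1.44e-04).

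Among transcription factors, NAC002 (PRUPE_6G238600), named after the *Arabidopsis* stress-responsive factor ATAF1, had 6.31, 6.72 and 6.26 CPM in PpPep1 48 h and 2.04, 1.43 and 2.27 CPM in t0. These 3 PpPep1 48 h libraries were nearly alike, and the log2FC was 1.75 ± 0.25 (adjusted p = 3.07e-05). A probable WRKY50 (PRUPE_1G407500) had 1.20, 0.84 and 2.01 CPM in PpPep1 48 h and 0.56, 0.53 and 0.72 CPM in t0. Its log2FC was 1.17 ± 0.31 (adjusted p = 0.00492), and it was no longer a DEG without PpPep1 48 h replicate 3 (0.76), t0 replicate 1 (1.12) or t0 replicate 2 (1.08).

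Other upregulated named genes have roles in metabolism, calcium binding and vesicle traffic. CS26 (PRUPE_7G018300), which in *Arabidopsis* is a chloroplast S-sulfocysteine synthase, had 21.3, 20.1 and 22.7 CPM in PpPep1 48 h and 8.03, 6.44 and 10.8 CPM in t0 (log2FC 1.34 ± 0.19, adjusted p = 2.46e-05). FAOMT (PRUPE_2G107300), a flavonoid methyltransferase, had 4.75, 3.91 and 4.24 CPM in PpPep1 48 h and 1.77, 1.98 and 1.67 CPM in t0 (log2FC 1.25 ± 0.17, adjusted p = 1.68e-05). In both genes the PpPep1 48 h libraries lay close together. KRP1 (PRUPE_4G033300), described as a calcium-binding protein, averaged 8.41 ± 3.45 CPM in PpPep1 48 h and 3.75 ± 0.82 CPM in t0 (SD, n = 3 each), and its log2FC of 1.17 ± 0.29 (adjusted p = 0.00427) fell under the thresholds without PpPep1 48 h replicate 1 (0.79), t0 replicate 1 (1.06) or t0 replicate 2 (1.11). ATARFB1A (PRUPE_8G134000), an ADP-ribosylation factor of vesicle traffic, averaged 2.09 ± 0.46 CPM in PpPep1 48 h and 0.94 ± 0.29 CPM in t0. Its log2FC of 1.15 ± 0.28 (adjusted p = 0.00273) held in only 2 of the 6 fits that each left out a library, and failed without PpPep1 48 h replicate 1 (1.02) or 2 (1.10) and without t0 replicate 1 (0.98) or 2 (1.09).

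The downregulated named genes were on the whole more even between replicates. CXXS1 (PRUPE_4G029100), a thioredoxin-like protein, had 1.61, 1.24 and 1.52 CPM in PpPep1 48 h leaves, against 8.40, 10.8 and 6.86 CPM in t0 leaves (log2FC -2.58 ± 0.40, adjusted p = 1.17e-04). PDR2 (PRUPE_6G122100), described as a pleiotropic drug resistance protein, a class of ABC transporters at the cell surface, had 148, 148 and 208 CPM in PpPep1 48 h and 557, 614 and 520 CPM in t0. It was the most abundant named DEG, and its log2FC of -1.74 ± 0.13 had an adjusted p of 3.14e-08. ATMYC1 (PRUPE_2G170100), which in *Arabidopsis* is a basic helix-loop-helix transcription factor of epidermal cell fate, had 3.28, 3.93 and 2.95 CPM in PpPep1 48 h and 11.1, 13.1 and 16.3 CPM in t0 (log2FC -1.99 ± 0.15, adjusted p = 3.02e-08). SCL5 (PRUPE_4G233000), a GRAS-domain transcription factor, had 11.5, 13.9 and 13.7 CPM in PpPep1 48 h and 31.3, 35.1 and 32.8 CPM in t0. The t0 values of SCL5 lay within a narrow range, and with a log2FC of -1.34 ± 0.10 it had the lowest adjusted p of the genes named here (1.49e-08).

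Further downregulated named genes covered lipid, peptide and nitrate functions. The triacylglycerol lipase 2 gene PRUPE_3G304100, an enzyme class that frees fatty acids from storage lipid, had 3.00, 2.25 and 2.87 CPM in PpPep1 48 h and 10.003, 7.03 and 10.6 CPM in t0 (log2FC -1.76 ± 0.25, adjusted p = 3.01e-05). DVL3 (PRUPE_3G240100), of a family of small peptides that alter organ shape in *Arabidopsis*, had 1.42, 0.96 and 1.05 CPM in PpPep1 48 h and 3.35, 3.17 and 3.39 CPM in t0 (log2FC -1.53 ± 0.18, adjusted p = 3.46e-06). NRT3.1 (PRUPE_5G164500), a partner protein of high-affinity nitrate transporters, had 8.40, 10.9 and 6.97 CPM in PpPep1 48 h and 17.2, 18.6 and 21.2 CPM in t0. Its log2FC was -1.11 ± 0.21 (adjusted p = 5.26e-04), and it was -0.97 without PpPep1 48 h replicate 3. PRUPE_8G190600, annotated with the AvrRpt cleavage site that bacterial effectors use in the *Arabidopsis* immune regulator RIN4, averaged 1.60 ± 0.43 CPM in PpPep1 48 h and 3.50 ± 0.21 CPM in t0 (SD, n = 3 each). Its log2FC of -1.13 ± 0.17 became -0.96 without PpPep1 48 h replicate 2. SEC1A (PRUPE_4G157300), also described as berberine bridge enzyme-like 1, averaged 0.97 ± 0.05 CPM in PpPep1 48 h and 2.10 ± 0.24 CPM in t0 (log2FC -1.10 ± 0.17). TRM11 (PRUPE_6G329700) and MGP3 (PRUPE_1G295700) had log2FC values of -1.22 ± 0.12 and -1.19 ± 0.11.

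**Figure D2:**
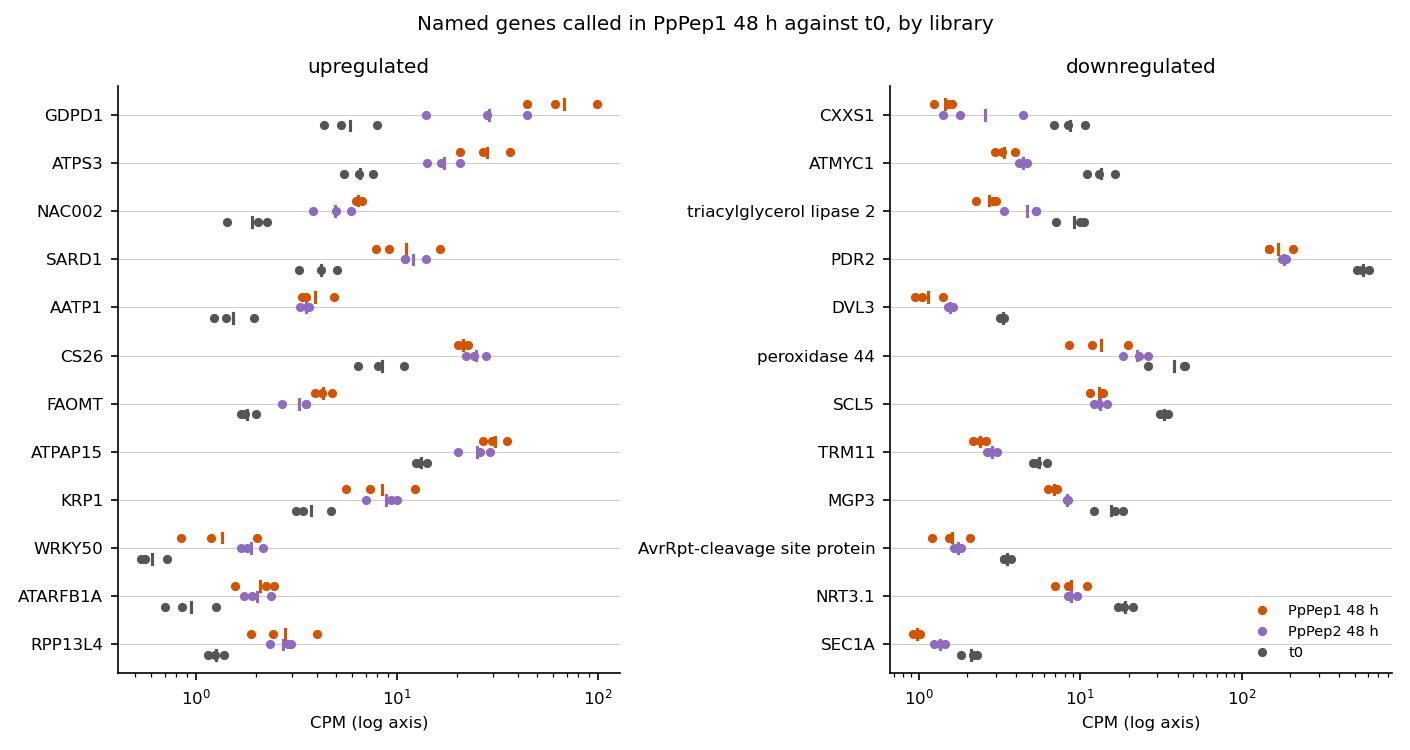
Level of the 12 highest upregulated (left) and 12 lowest downregulated (right) named DEGs in each library, in CPM on a log axis, with dots for the 3 libraries of PpPep1 48 h (top of each row), PpPep2 48 h (middle) and t0 (bottom) and a vertical tick for the group mean. The PpPep1 48 h and t0 dots do not overlap in any row, by the rule that chose the genes, and PDR2 at 148 to 208 CPM in PpPep1 48 h is the most abundant of them.

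A further 11 named DEGs, outside this choice and outside the largest changes of the gene lists, had log2FC values of 1.00 to 1.38 (6 genes) or of -1.07 to -1.02 (5 genes). The upregulated ones included the purple acid phosphatase ATPAP16 (PRUPE_7G050500, log2FC 1.02), a second phosphatase of the ATPAP15 class, and the NAC-family gene anac036 (PRUPE_8G174800, 1.14). The downregulated ones were the class V chitinase CHIT5A (PRUPE_1G391300, -1.02), the Kunitz trypsin inhibitor KTI2 (PRUPE_5G074500, -1.02), ABP19A (PRUPE_7G200300, -1.07), the receptor-like protein AtRLP4 (PRUPE_4G051100, -1.05) and TOZ (PRUPE_2G326400, -1.04).

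Among DEGs without a name, with at least 1 CPM in the higher group and no overlap, the 2 highest and 2 lowest log2FC values were as follows. PRUPE_8G153700 had 3.92, 4.10 and 8.76 CPM in PpPep1 48 h and 0.208, 0.143 and 0.0478 CPM in t0, from 605 counts against 19 in all (log2FC 5.33 ± 0.44, adjusted p = 1.21e-07). PRUPE_5G237900 had 65.2, 26.4 and 36.8 CPM in PpPep1 48 h and 1.10, 0.92 and 1.63 CPM in t0 (log2FC 5.15 ± 0.77, adjusted p = 1.22e-04). Its replicate order in PpPep1 48 h, with replicate 1 highest and replicate 2 lowest, was that of GDPD1 and ATPS3. In the other direction, PRUPE_1G334000 had 0.250, 0.225 and 0.165 CPM in PpPep1 48 h and 9.25, 6.79 and 13.03 CPM in t0, from 23 counts against 1322 (log2FC -5.48 ± 0.47, adjusted p = 4.74e-07). PRUPE_1G131500 had 12 counts in PpPep1 48 h, with none in replicate 2, and 421 in t0 (log2FC -4.72 ± 0.78, adjusted p = 1.75e-04). PRUPE_7G124500 was the only DEG with no count in any PpPep1 48 h library, against 11, 31 and 13 counts in t0. Set against a floor of 3 counts over the group, its level was at least 14.2-fold lower in PpPep1 48 h.

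The 5 most abundant upregulated DEGs, none of which carries a name, had log2FC values between 1.00 and 1.46. PRUPE_8G083400 had 8016, 6807 and 7042 CPM in PpPep1 48 h and 2794, 3873 and 3808 CPM in t0 (log2FC 1.06 ± 0.13, adjusted p = 4.93e-06), and its log2FC was 0.98 without PpPep1 48 h replicate 1 and 0.92 without t0 replicate 1. PRUPE_7G181400 averaged 2940 ± 190.4 CPM in PpPep1 48 h and 1203 ± 199.6 CPM in t0, PRUPE_4G019200 2099 ± 37.2 and 925 ± 101 CPM, and PRUPE_1G299500 1507 ± 97.2 and 549 ± 59.4 CPM (SD, n = 3 each), and all of them remained DEGs whichever library was left out. PRUPE_6G292600 averaged 2260 ± 100.2 CPM in PpPep1 48 h and 1128 ± 91.2 CPM in t0, and its log2FC of 1.00 ± 0.11 sat on the threshold, and it dropped under it when t0 replicate 1 (0.94), PpPep1 48 h replicate 1 (0.98) or PpPep1 48 h replicate 3 (0.99) was left out.

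The 5 most abundant downregulated DEGs, also without a name, had values between -1.44 and -1.07. PRUPE_1G476200 had 11309, 8858 and 6556 CPM in PpPep1 48 h and 18778, 19569 and 17777 CPM in t0. The PpPep1 48 h libraries were widely spread below a tight t0 group, and the log2FC of -1.07 ± 0.20 (adjusted p = 3.72e-04) became -0.89 without PpPep1 48 h replicate 3. PRUPE_1G477400 showed the same replicate order, at 5200, 3210 and 2149 CPM in PpPep1 48 h and 7113, 7746 and 7805 CPM in t0, and was a DEG in only 1 of the 6 fits that left out a library, the one without PpPep1 48 h replicate 1. PRUPE_4G185700 had 269, 207 and 243 CPM in PpPep1 48 h and 457, 834 and 660 CPM in t0 (log2FC -1.44 ± 0.16). PRUPE_8G025400 averaged 501 ± 119 CPM in PpPep1 48 h and 1251 ± 225 CPM in t0, and PRUPE_8G024800 335 ± 47.9 and 711 ± 188 CPM. PRUPE_8G024800 was no longer a DEG without PpPep1 48 h replicate 1 (-0.98) or t0 replicate 2 (-0.94).

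None of the Pep receptor, FLS2, MPK3, CDPK8 and BIR1 genes was a DEG at 48 h. PpPEPR1a (PRUPE_3G167800), a predicted Pep receptor, had 5.42, 6.55 and 6.86 CPM in PpPep1 48 h and 9.25, 6.79 and 9.90 CPM in t0, groups that overlap (log2FC -0.46 ± 0.17, adjusted p = 0.0443). The related gene PpPEPR1b (PRUPE_3G167900) had 1.89, 1.91 and 2.45 CPM in PpPep1 48 h and 1.75, 1.10 and 1.51 CPM in t0 (log2FC 0.52 ± 0.21, adjusted p = 0.059), and how reads of such related genes were divided depends on the authors' counting. PpFLS2 (PRUPE_3G304400), the flagellin receptor gene, had 0.695, 0.534 and 0.689 CPM in PpPep1 48 h and 0.270, 0.388 and 0.359 CPM in t0, from 69 and 47 counts in all. Its groups did not overlap, but with a log2FC of 0.91 ± 0.30 and an adjusted p of 0.0198 it was not a DEG. None of the 3 receptor genes was a DEG by edgeR or DESeq2, beside 4.52% of all genes tested, and all 3 had an unadjusted p under 0.05, beside 47.3% of all genes tested. The MAP kinase gene MPK3 (PRUPE_6G091700) had 30.0, 30.9 and 31.5 CPM in PpPep1 48 h and 33.6, 30.6 and 38.7 CPM in t0 (log2FC -0.15 ± 0.16, adjusted p = 0.473). The calcium-dependent kinase gene CDPK8 (PRUPE_7G064300) averaged 43.6 ± 2.09 CPM in PpPep1 48 h and 40.1 ± 0.47 CPM in t0 (adjusted p = 0.621). BIR1 (PRUPE_8G186400), a receptor kinase that restrains immune signalling in *Arabidopsis*, had 25.7, 17.3 and 28.0 CPM in PpPep1 48 h and 15.3, 15.0 and 18.8 CPM in t0 (log2FC 0.53 ± 0.20, adjusted p = 0.039).

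The 19 genes that the study followed by RT-qPCR were taken from functional categories that responded in its own RNA-Seq data. Of these 19 genes, 1 was a DEG at 48 h and it was downregulated. This was peroxidase 44 (PRUPE_7G016500), a class III peroxidase of the cell wall, with 19.7, 8.54 and 11.8 CPM in PpPep1 48 h and 26.1, 44.2 and 43.9 CPM in t0 (log2FC -1.51 ± 0.39, adjusted p = 0.00613). The result rests on few libraries, since the gene lost its call without PpPep1 48 h replicate 2 (-1.27) or 3 (-1.43) and without t0 replicate 2 (-1.39) or 3 (-1.40). As a share of the list this is 5.26%, beside 4.52% of all genes tested, and the median log2FC of the 19 genes was 0.12. The list had 2 DEGs without t0 replicate 1 or t0 replicate 3, and none by edgeR without PpPep1 48 h replicate 2 or 3 or t0 replicate 2. With all libraries, 9 of its 19 genes had an unadjusted p under 0.05, beside 47.3% of all genes tested.

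Some RT-qPCR genes lay near a log2FC of 1 without passing the test. WRKY33 (PRUPE_6G286000), a transcription factor of early immune induction, had 4.56, 3.15 and 7.28 CPM in PpPep1 48 h and 2.08, 2.31 and 3.32 CPM in t0 (log2FC 0.97 ± 0.38, adjusted p = 0.0525). PR4 (PRUPE_6G141100), a chitin-binding pathogenesis-related protein, had 20.5, 15.6 and 37.6 CPM in PpPep1 48 h and 4.64, 8.55 and 22.2 CPM in t0 (log2FC 1.07 ± 0.48, adjusted p = 0.0895). In both genes the highest t0 library was replicate 3 and it reached into the range of the PpPep1 48 h libraries. The G-type lectin S-receptor-like kinase gene PRUPE_3G089700 had 7.70, 5.25 and 6.61 CPM in PpPep1 48 h and 2.79, 1.59 and 5.14 CPM in t0 (log2FC 1.06 ± 0.40, adjusted p = 0.0496). The xyloglucan endotransglucosylase/hydrolase 2 gene PRUPE_3G171500, of cell wall remodelling, had 9.48, 7.05 and 7.94 CPM in PpPep1 48 h and 7.09, 1.14 and 3.78 CPM in t0 (log2FC 1.03 ± 0.46, adjusted p = 0.0894). ATL22 (PRUPE_5G120000), a RING-type ubiquitin ligase, had 3.25, 3.15 and 4.13 CPM in PpPep1 48 h and 2.23, 1.82 and 1.98 CPM in t0 (log2FC 0.80 ± 0.24, adjusted p = 0.0139). The other RT-qPCR genes had log2FC values between -0.68 for the basic leucine zipper gene PRUPE_4G172000 (adjusted p = 0.0694) and 0.84 for CDPK11, PRUPE_7G090800 (adjusted p = 0.263). For 3 of the 19 genes the PpPep1 48 h libraries all lay above t0 and for 2 all below, beside 27.1% and 21.5% of all genes tested.

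Set side by side, and with the same t0 libraries behind every value, the RT-qPCR genes had a median log2FC of 3.01 at 1 h after PpPep1, 0.34 at 24 h and 0.12 at 48 h. Of the 19 genes, 16 were DEGs at 1 h, 1 at 24 h and 1 at 48 h, while 5.91%, 0.925% and 4.52% of all genes tested were DEGs at these times. The list came from categories that responded to the peptides in these same samples. Its shares and medians follow in part from that choice and are a description only. CDPK11 (PRUPE_7G090800), a calcium-dependent kinase gene, had a log2FC of 6.33 at 1 h, 0.48 at 24 h and 0.84 at 48 h, and the U-box ubiquitin ligase gene PRUPE_3G164200 had 5.38, -0.54 and 0.00. WRKY33 had 6.28 at 1 h, 0.83 at 24 h and 0.97 at 48 h. Peroxidase 44 had 3.34 at 1 h, 0.34 at 24 h and -1.51 at 48 h. PpPEPR1a had a log2FC of 1.32 at 1 h, 0.21 at 24 h and -0.46 at 48 h. The 48 h libraries are of another library series than t0, so these values are given without a test of the difference between them.

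**Figure D3:**
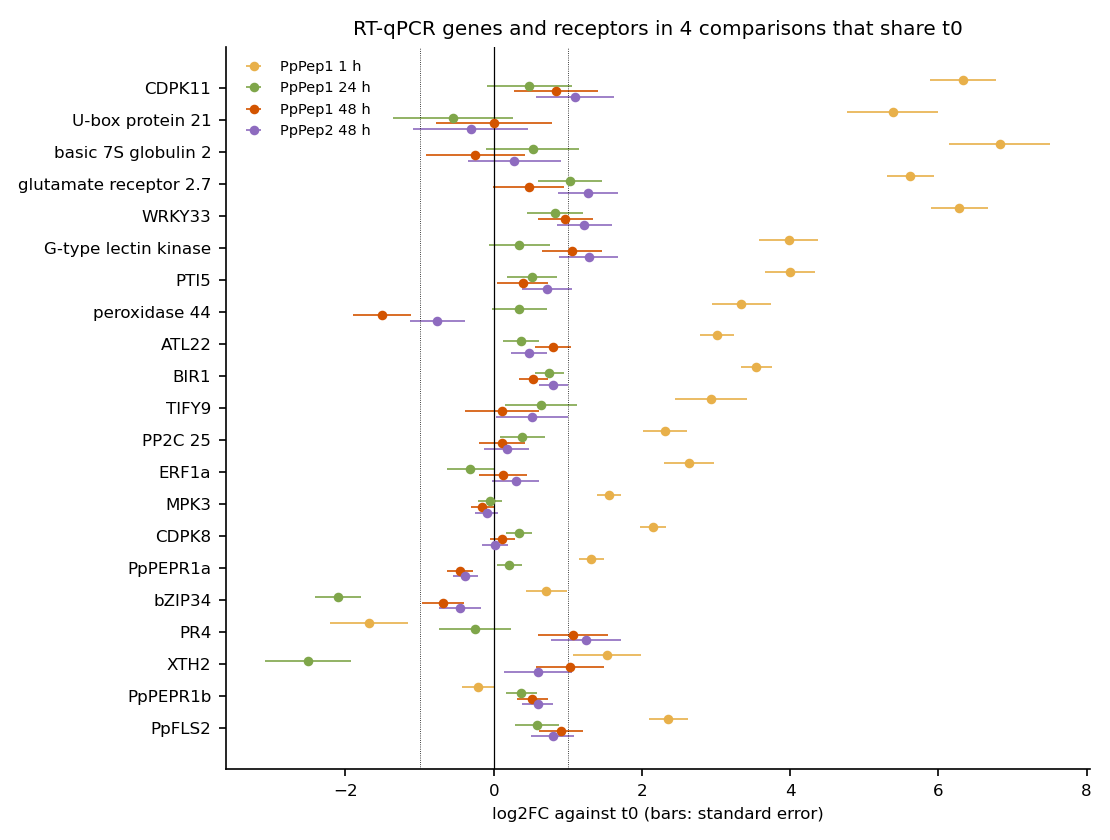
log2FC against t0 of the 19 RT-qPCR genes, PpPEPR1b and PpFLS2, with PpPep1 at 1 h, 24 h and 48 h and PpPep2 at 48 h in separate colours. Bars are standard errors, dotted lines mark a log2FC of 1 and -1, and the same 3 t0 libraries enter every value. For WRKY33 the PpPep1 values are 6.28 at 1 h, 0.83 at 24 h and 0.97 at 48 h.

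For the DEGs named above, the values at the 3 times are likewise given side by side with no test of the difference. SARD1 had a log2FC of 3.62 at 1 h, 0.74 at 24 h and 1.42 at 48 h, and RPP13L4 had 3.06, 0.47 and 1.14. GDPD1 had 1.44 at 1 h (adjusted p = 0.096), 4.16 at 24 h and 3.55 at 48 h, and ATPS3 had 0.48 (adjusted p = 0.42), 2.23 and 2.11. For CS26, ATPAP15 and NAC002 the values at 48 h were 1.34, 1.22 and 1.75, after -0.03, 0.05 and -0.69 at 1 h and 0.29, 0.18 and 0.31 at 24 h, none of the early values being a DEG. PDR2 was upregulated at 1 h (log2FC 1.29, adjusted p = 2.53e-07), had -0.24 at 24 h and was downregulated at 48 h (-1.74). ATMYC1 had -0.32 at 1 h, -0.37 at 24 h and -1.99 at 48 h, and PRUPE_1G334000 had 0.76, -0.70 and -5.48.

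The gene lists of the study were selected on these same samples, so their counts are a description and not independent evidence. Network cluster 2, a module of the study's knowledge network with 192 peach genes of which 191 were tested, had 9 upregulated and 8 downregulated DEGs, 8.90% of the module beside 4.52% of all genes tested. Its median log2FC was 0.18, beside 0.03 over all genes. The upregulated members included NAC002, SARD1, AATP1, FAOMT, KRP1 and RPP13L4, and the downregulated ones CXXS1, PDR2, SCL5, NRT3.1 and SEC1A. At 1 h after PpPep1 the same module had 109 DEGs and a median log2FC of 1.16, and 5.91% of all genes tested were DEGs.

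Of 25 WRKY factors tested, 2 were upregulated and none was downregulated, 8% beside 4.52% of all genes tested, with a median log2FC of 0.32. These were WRKY50 and WRKY55 (PRUPE_2G264900). WRKY55 had 26 counts in PpPep1 48 h and 6 in t0, at 0.195, 0.084 and 0.441 CPM in PpPep1 48 h and 0.062, 0.061 and 0 CPM in t0. Its log2FC of 2.41 ± 0.69 (adjusted p = 0.00953) passed in 1 of the 6 fits that left out a library, the one without PpPep1 48 h replicate 2, and the WRKY list as a whole had 4 DEGs in that fit, 1 when t0 replicate 1 or PpPep1 48 h replicate 1 was left out, and 0 when t0 replicate 2 or PpPep1 48 h replicate 3 was. SCL5 was the only DEG of 14 GRAS factors (7.14%, median 0.26). None of 25 homeobox factors (median 0.09), 9 auxin response factors (median -0.03) or 9 B3 factors (median -0.18) was a DEG by edgeR or by DESeq2, while 12, 2 and 4 of them had an unadjusted p under 0.05, beside 47.3% of all genes tested, and 1 homeobox and 1 B3 factor became DEGs without PpPep1 48 h replicate 3 and without t0 replicate 1 in turn.

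The list of lipid degradation genes, which also holds kinases similar to the wheat rust resistance kinase Lr10, had 6 upregulated and 2 downregulated DEGs among 64 genes, 12.5% beside 4.52% of all genes tested, with a median log2FC of 0.28. Its DEGs with a lipid function were GDPD1, phospholipase D alpha 4, phospholipase A1-IIgamma (PRUPE_4G059100, log2FC 1.06) and the downregulated triacylglycerol lipase 2. Phospholipase D alpha 4 (PRUPE_3G051200), an enzyme that splits membrane lipids into phosphatidic acid, had only 31 counts in PpPep1 48 h and 11 in t0, at 0.334, 0.281 and 0.248 CPM in PpPep1 48 h and 0.062, 0.082 and 0.096 CPM in t0 (log2FC 1.82 ± 0.43, adjusted p = 0.00245). It lost its call without PpPep1 48 h replicate 1 (1.70) or t0 replicate 1 (1.67) and with DESeq2. The Lr10-like kinase gene PRUPE_2G103400 had 6.67, 5.56 and 9.37 CPM in PpPep1 48 h and 3.58, 3.33 and 3.06 CPM in t0 (log2FC 1.11 ± 0.17, adjusted p = 5.80e-05), and 0.88 without PpPep1 48 h replicate 3. Over the fits that left out a library the list had 4 to 9 DEGs, with 4 without PpPep1 48 h replicate 3 and 5 without t0 replicate 1 or 2. The chromatin remodelling list had 3 DEGs among 36 genes (median log2FC 0.31), and all 3 also stand in the lipid degradation list, among them PRUPE_1G319000, whose log2FC of -2.32 ± 0.62 from 22 counts in PpPep1 48 h and 143 in t0 did not pass in any of those fits. That list had 0 DEGs without PpPep1 48 h replicate 3, 1 without t0 replicate 2 and 5 without t0 replicate 3.

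**Figure D4:**
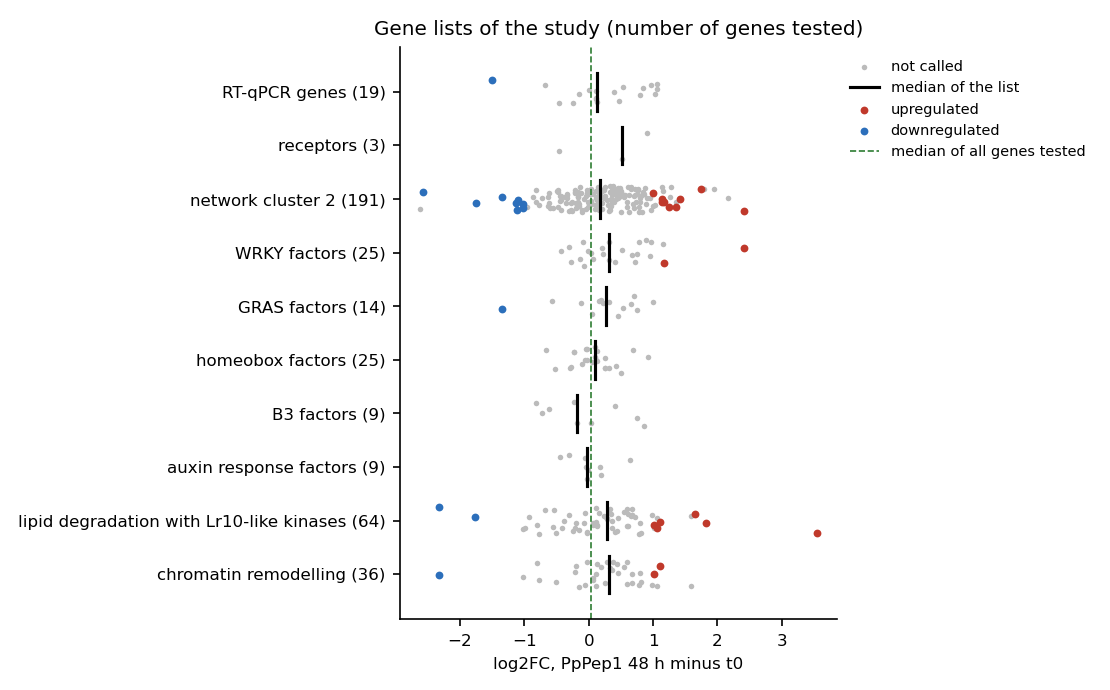
log2FC, PpPep1 48 h minus t0, of each tested member of 10 gene lists of the study, with upregulated DEGs in red, downregulated DEGs in blue, other genes in grey and the median of each list as a black bar. The dashed line is the median of all genes tested (0.03), and the list medians lie between -0.18 for the B3 factors and 0.52 for the 3 receptors.

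Both 48 h groups share a library series but not a dose (100 nM PpPep1 and 1000 nM PpPep2). Only 1 of the 18586 genes was a DEG in PpPep1 48 h against PpPep2 48 h, 0.00538% of the genes tested, and it was lower in PpPep1 48 h. At an unadjusted p under 0.05 there were 1939 genes, 10.4%, and DESeq2 called 2 genes. The libraries of both groups did not overlap for 16.5% of genes. PRUPE_1G038000, which has no name, had 2.09, 2.00 and 2.89 CPM in PpPep1 48 h, against 10.9, 13.5 and 8.48 CPM in PpPep2 48 h, a log2FC of -2.23 ± 0.26 (adjusted p = 0.00152). In t0 it had 1.04, 1.98 and 1.55 CPM, all under the PpPep1 48 h range. It lost its call without PpPep1 48 h replicate 1 or 2 or without PpPep2 48 h replicate 2, each of which left no DEG. The gene that DESeq2 added, PRUPE_4G087100, had 4.42, 3.91 and 4.33 CPM in PpPep1 48 h, against 1.45, 2.23 and 2.43 CPM in PpPep2 48 h and 0.98, 1.64 and 1.15 CPM in t0 (DESeq2 log2FC 1.02, edgeR adjusted p = 0.135), and was named after its values were seen.

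The absence of further DEGs does not show that the peptides act alike. An interval of 1.96 standard errors to each side of the log2FC between PpPep1 48 h and PpPep2 48 h was set for each gene. It lay between -1 and 1 for 16491 genes, 88.7% of those tested, and reached past 1 or -1 for the others. This interval is narrower than a 95% interval of the F test, so the share within -1 and 1 is on the high side. A log2FC above 1 or below -1 was estimated for 206 genes, beside 1282 in PpPep1 48 h against t0, with a median standard error of 0.12 in both comparisons. GDPD1 had 99.1, 44.3 and 61.2 CPM in PpPep1 48 h, against 14.03, 44.3 and 28.0 CPM in PpPep2 48 h (log2FC 1.24 ± 0.54, adjusted p = 0.448). The highest PpPep2 48 h library equalled the lowest PpPep1 48 h library, and PpPep2 48 h replicate 1 lay well below all others. PRUPE_5G237900 had 65.2, 26.4 and 36.8 CPM in PpPep1 48 h and 7.34, 34.8 and 21.0 CPM in PpPep2 48 h (log2FC 1.01 ± 0.60, adjusted p = 0.588), again with the lowest library in PpPep2 48 h replicate 1. By contrast, PDR2 averaged 168 CPM in PpPep1 48 h and had 187, 176 and 182 CPM in PpPep2 48 h (log2FC -0.11 ± 0.13), and SCL5 differed by -0.03 ± 0.10.

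Against the same t0 libraries, PpPep2 48 h had 482 DEGs in all, 263 up and 219 down, 2.59% of the genes tested. The named genes were picked on PpPep1 48 h, and both comparisons share t0. Among named DEGs of both, log2FC in PpPep1 48 h and PpPep2 48 h was 1.42 and 1.52 for SARD1 and 1.34 and 1.56 for CS26. It was 1.75 and 1.38 for NAC002, -1.99 and -1.61 for ATMYC1, -1.74 and -1.63 for PDR2, and 3.55 and 2.31 for GDPD1. Others were not DEGs in PpPep2 48 h, such as ATPS3 with 2.11 and 1.40 (adjusted p = 0.0136 in PpPep2 48 h). The same held for ATPAP15 (1.22 and 0.94), FAOMT (1.25 and 0.86) and triacylglycerol lipase 2 (-1.76 and -0.99). It also held for TRM11 (-1.22 and -0.97), MGP3 (-1.19 and -0.90), PRUPE_8G190600 (-1.13 and -0.999) and SEC1A (-1.10 and -0.63). Peroxidase 44 had -1.51 in PpPep1 48 h and -0.76 in PpPep2 48 h, where it was not a DEG (adjusted p = 0.144), and between the peptides it differed by -0.75 ± 0.39 (adjusted p = 0.527).

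**Figure D5:**
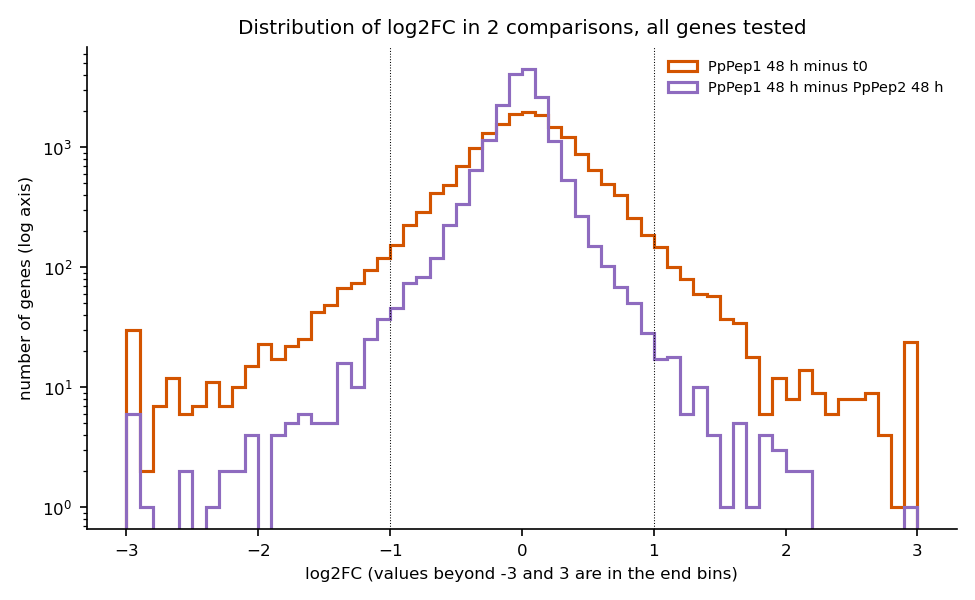
Number of genes (log axis) by log2FC in PpPep1 48 h minus t0 and in PpPep1 48 h minus PpPep2 48 h, over the 18586 genes tested, with values beyond -3 and 3 in the end bins. A log2FC above 1 or below -1 (dotted lines) was estimated for 1282 genes in PpPep1 48 h minus t0 and for 206 in PpPep1 48 h minus PpPep2 48 h.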

How the data were processed

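RNA of 21 leaf samples (7 groups of 3 biological replicates) was sequenced by the authors as stranded poly-A libraries with molecular identifiers. Reads were aligned with STAR 2.5.3a and quantified with RSEM 1.3.0 on the peach genome NCBIv2, and the authors' own tests used DESeq2 1.20.0, per the labels and the study's methods. The deposited values are estimated counts per gene given as whole numbers, and how they became whole and whether identifiers were collapsed is not given in the sources used here. The table holds 27107 genes, 3787 of them with no count in any library, and 0 columns of no sample. The 234 tRNA genes had no counts.

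Columns were given to samples by the matched reading stated in the report: a total of 0.95 to 0.99 of the read pairs of 1 library and the same number of genes holding 25% of the reads. All 21 columns matched their library, 18 of them no other, and 12 matched as headed.

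Counts were tested with edgeR 4.0.16 in R 4.3.3 (TMM scaling, filterByExpr, robust quasi-likelihood F test, 1 model of 7 groups), which kept 18586 genes. Adjusted p is Benjamini-Hochberg over all of them, SE is the log2FC divided by the root of F, CPM are TMM-scaled, and mean ± SD are over 3 libraries. DEG thresholds were those of the study. P-values, standard errors and intervals rest on the spread between replicates, estimated over all 7 groups. Floors based on counts cover counting error only. The tests were also run on counts simulated from the levels and spreads of these data, and the outcome is not given here. DESeq2 1.42.0, RLE scaling, other filters and thresholds, the replicate number, the columns as headed and leaving out each library were the alternatives.

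Members, lists and tests were chosen with earlier results of these data known. Named genes were the RT-qPCR genes and receptors, the 12 highest and 12 lowest named DEGs with at least 1 CPM in the higher group and no overlap, 2 unnamed DEGs in each direction by the same rule, the 5 most abundant DEGs in each direction, up to 4 DEGs of each list with the largest log2FC, and DEGs between the peptides. PRUPE_7G124500, PRUPE_4G087100 and the named DEGs beyond the 12 in each direction were added after their values were seen. Gene names come from the table and the study's gene lists. No ID matched the RefSeq table used here (0 of 27107), so lists and cell type markers by gene description were not analysed here, nor were coordinates and sequences. Columns with the authors' own comparisons were not used. PDF1.4 (PRUPE_1G376000) of the network module and WRKY70 (PRUPE_6G295000) were not tested because of low counts.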

Additional observations from a re-analysis of the deposited data

Results flagged for a closer look

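PRUPE_1G038000 was the 1 gene whose level 48 h after spraying differed between the peptides past the thresholds, with a log2FC of -2.23 for PpPep1 48 h minus PpPep2 48 h (adjusted p = 0.00152). It had 2.09, 2.00 and 2.89 CPM in PpPep1 48 h, against 10.9, 13.5 and 8.48 CPM in PpPep2 48 h and 1.04, 1.98 and 1.55 CPM in t0. Its call was lost without PpPep1 48 h replicate 1 or 2, without PpPep2 48 h replicate 2, and with only the 2 groups compared. Against the same t0 libraries its log2FC was 0.61 in PpPep1 48 h (adjusted p = 0.103) and 2.84 in PpPep2 48 h (adjusted p = 1.13e-06). The peptides were sprayed at different doses, and peptide and dose cannot be told apart.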

How the results depend on the processing

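The number of DEGs in PpPep1 48 h against t0 (841; 404 up and 437 down) ranged from 690 to 1039 under other scalings, filters, tools, samples and the threshold of 0.05 on adjusted p, and from 733 to 826 when 1 library was left out (346 to 403 up, 374 to 447 down). Without the threshold on log2FC it was 4859 (2704 up, 2155 down). DESeq2 called 870 genes, of which 801 were shared. With the columns as headed there were 1237 DEGs, 1148 up and 89 down. In PpPep1 48 h against PpPep2 48 h, the 1 DEG became 2 with DESeq2 (1 up, 1 down) and 0 with only the 2 groups compared, and 0 to 1 when a library was left out, all of it downregulated. The replicate number as a block gave 832 DEGs against t0 (402 up, 430 down) and 1 between the peptides. The correlation of deviations of same-numbered libraries was -0.09, 0.00 and 0.01 between PpPep1 48 h and t0 and 0.05, -0.13 and -0.08 between the peptides, so the numbers do not pair the samples, and not every library correlated best with its own number. With the block, peroxidase 44 (-1.53) and PRUPE_1G319000 (-2.33) missed the threshold on adjusted p.

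Of the 44 DEGs among 68 named genes, 26 kept their call under every alternative apart from the columns as headed, and no gene that was a DEG in either fit changed sign there, while 6 named genes that were DEGs in neither fit did. With the columns as headed, 27 named genes that were DEGs in at least 1 of the fits changed sign, as did 3 that were DEGs in neither. The 27 had a log2FC of 7.35 (PRUPE_1G152100), 3.80 (PRUPE_7G016500), 1.51 (PRUPE_6G091700), 1.51 (PRUPE_3G167800), -1.08 (PRUPE_6G238600), -0.18 (PRUPE_7G018300), -0.088 (PRUPE_8G201400), 0.53 (PRUPE_4G029100), 0.17 (PRUPE_2G170100), 0.59 (PRUPE_3G304100), 1.64 (PRUPE_6G122100), 0.38 (PRUPE_3G240100), 0.49 (PRUPE_4G233000), 0.13 (PRUPE_1G295700), 0.94 (PRUPE_4G157300), -0.30 (PRUPE_8G153700), 0.85 (PRUPE_1G334000), -0.51 (PRUPE_8G083400), -0.82 (PRUPE_7G181400), -0.35 (PRUPE_6G292600), -0.16 (PRUPE_4G019200), -0.21 (PRUPE_1G299500), 0.37 (PRUPE_1G476200), 0.55 (PRUPE_1G477400), 0.21 (PRUPE_8G025400), 0.36 (PRUPE_4G185700) and 5.11 (PRUPE_1G319000). That reading sets other libraries against t0. Depth limits the genes of few counts, such as WRKY55 (PRUPE_2G264900) with 26 counts in PpPep1 48 h and 6 in t0.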
